A study of Mus musculus with 38 samples.

Results

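A06, A09 and B03 are 3 of the 21 target assays of a qRT-PCR panel measured in mouse hearts after ischemia and reperfusion. They were chosen by the measured difference between treated and untreated injured mice, MLAD minus LAD, which in each was 1 to 2 log2 units higher at 96 h than at 24 h after surgery. Because the choice used them, these differences are described here without a test. The name under which the assays were grouped, a moderate late rise, restates the differences that chose them. Their size depended on the reference. With other references the rise stayed above 0 in all 3 assays, from 0.98 in A06 to 3.86 in B03, and mostly left the range of 1 to 2. Against sham mice the 3 assays differed, and there the direction of some differences also turned with the reference.

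All 38 mice were male C57BL/6N animals of 8 to 10 weeks, and the tissue came from the left ventricle. Sham mice had the same surgery without ligation of the left anterior descending coronary artery (LAD), and were followed for 24 h (n = 5) or 96 h (n = 5). LAD mice had the artery tied for 30 min and then released, received empty solid lipid nanocarriers (SLN), and were followed for 24 h (n = 7) or 96 h (n = 7). MLAD mice had the same 30 min occlusion and received 20 μL of diluted SLN loaded with Myriocin into the left ventricle at the start of reperfusion, again with 7 mice at 24 h and 7 mice at 96 h. No SLN is described for the sham mice, and no group of uninjured mice received Myriocin, so the drug was measured only on top of the injury. In LAD and MLAD mice the RNA came from the area at risk, the territory fed by the tied artery. A lower level in this tissue can stand for fewer cells of a type or for less RNA per cell, which cannot be told apart here.

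Myriocin blocks serine palmitoyl transferase, the enzyme that starts sphingolipid synthesis and so leads to ceramide. The heart draws most of its energy from fatty acids, and after ischemia it commonly turns down genes for their uptake and oxidation, many of which are driven by PPAR nuclear receptors and their co-activator PGC-1α. The panel was built around this biology, with myosin heavy chains, PPARs, fatty acid transporters, mitochondrial dehydrogenases and perilipins among its targets. The deposited values are listed under plate codes, and the tables at hand do not link a code to a gene. A06, A09 and B03 are therefore given by code, and no gene or role is assigned to them.

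The value of an assay in a mouse was the threshold cycle (Ct) of the reference assay B10 minus the Ct of the target, both from the same listing. Ct is the PCR cycle at which the signal crosses a set level, so a larger difference stands for more target transcript relative to the reference, and 1 cycle is 1 log2 unit if each cycle doubles the product. B10 was assumed to be RPLI, since the study names no other endogenous control. Its primers are shown because every value below is measured against that product, and they are written 5′ to 3′ in lower case, with no part singled out by capitals.
RPLI forward: ctcggccgttctcctgta
RPLI reverse: gtggaagtggggcttcag
Primer pairs for 21 targets are listed beside it without plate codes, so none could be shown for A06, A09 or B03. RPLI matched 0 mouse symbols or synonyms in the RefSeq table.

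A06 had a value in 35 of the 38 mice, A09 in 26 and B03 in 32, and 22 mice had all 3. The empty combinations of A09 left 3 sham mice at each time, and B03 also had 3 sham mice at 24 h. Target Ct of the 3 assays lay between 24.5 and 34.0 cycles and B10 Ct between 21.9 and 31.8 cycles. The number of wells behind a Ct was not found, so its technical error is unknown.

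The value that chose the assays was 1.66 ± 0.42 log2 units (SE) for A06, 1.42 ± 0.35 for A09 and 1.69 ± 0.47 for B03. The bounds of 1 and 2 were met by 5 of the 21 assays (23.8%), so that B06 at 1.42 and B09 at 1.78 lay in the same range and are not part of this set. Just outside were A08 at 0.96 and B08 at 2.06. The median over all 21 assays was 1.42, at the lower end of the set. A06, A09 and B03 were thus close to the middle of the panel in this measure and did not stand apart from it.

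**Figure D1:**
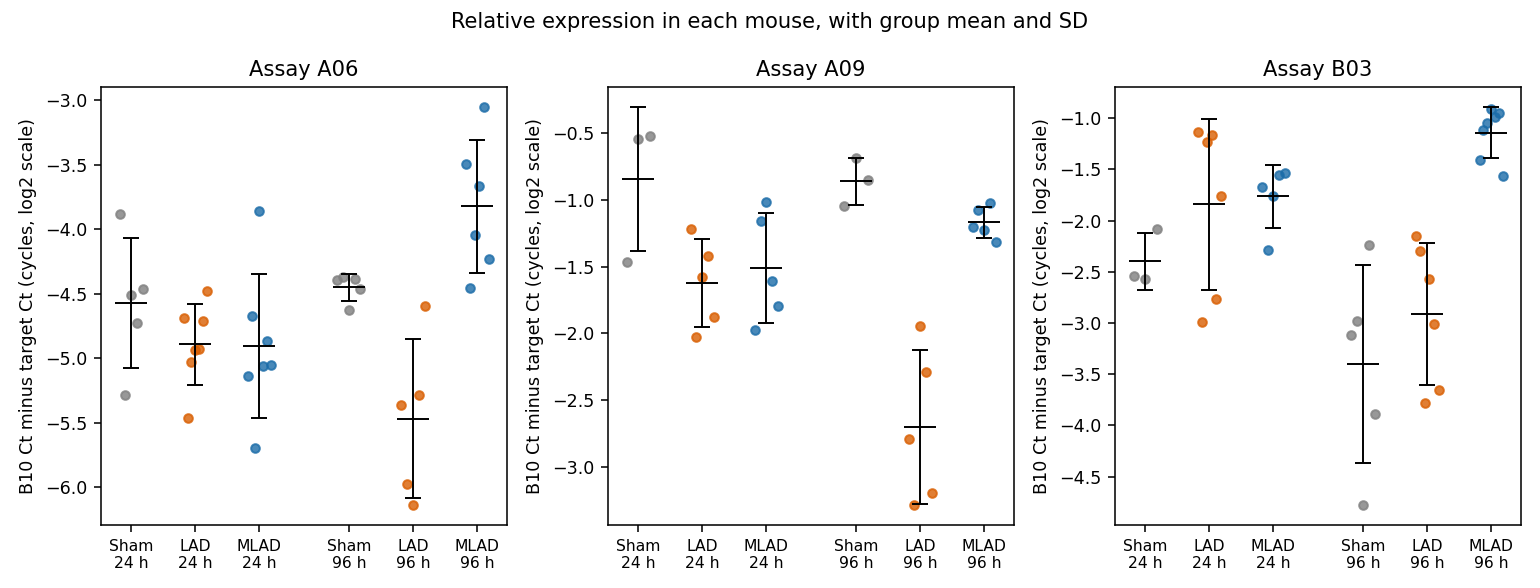
Relative expression of A06, A09 and B03 in each mouse (points; B10 Ct minus target Ct, in cycles on a log2 scale) by group and time, with the group mean (black line) and SD (bars). At 96 h the MLAD mice (blue) lie above all LAD mice (orange) in each assay, and at 24 h the 2 groups overlap.

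At 96 h all 3 assays were higher in MLAD than in LAD mice, by 2.90-fold to 3.41-fold, and in none of them did the groups overlap. Over the panel, 12 of 21 assays (57.1%) had no overlap in this comparison, all with MLAD higher, and since the comparison was part of the rule nothing is read from the count. The median difference was 1.54 over all 21 assays and 1.65 over the 3.

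A06 read -5.36, -5.97, -6.14, -5.28 and -4.59 in the 5 LAD mice at 96 h. The 6 MLAD mice lay between -4.45 and -3.06 (median -3.85). The lowest MLAD mouse was 0.14 above the highest LAD mouse, the narrowest gap of the 3 assays. The difference of the means was 1.65 ± 0.35 log2 units (SE), or 3.13-fold.

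A09 read -2.79, -3.29, -1.95, -2.29 and -3.20 in LAD mice, and -1.20, -1.07, -1.22, -1.02 and -1.31 in MLAD mice at 96 h. The MLAD mice were tightly grouped, with an SD of 0.12 against 0.58 in LAD mice. The gap between the groups was 0.63, and the difference of the means was 1.54 ± 0.26 (SE), or 2.90-fold.

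At 96 h the 6 LAD mice of B03 lay between -3.78 and -2.15 (median -2.79). The 7 MLAD mice lay between -1.56 and -0.91 (median -1.05). Here too the MLAD mice varied less, with an SD of 0.25 against 0.69. The gap was 0.58 and the difference 1.77 ± 0.30 (SE), or 3.41-fold. MLAD replicates 5 and 6 carried the same B10 Ct to the last decimal in this assay. Counted as 1 mouse, they left a difference of 1.74.

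At 24 h LAD and MLAD mice overlapped in all 3 assays, where 3 of 21 assays (14.3%) had no overlap, and the differences of the means were smaller than the spread between mice. MLAD minus LAD was -0.02 ± 0.24 (SE) for A06, 0.11 ± 0.24 for A09 and 0.08 ± 0.37 for B03. Taken over same-numbered pairs, the difference was -0.02 ± 0.68 (SD, 7 pairs) for A06 and -0.10 ± 0.55 (SD, 5 pairs) for B03. For A09 it was 0.29 ± 0.17 (SD, 4 pairs), above 0 in all 4 pairs. These pairs leave out LAD replicate 1, the highest LAD mouse at -1.22, and MLAD replicate 6 at -1.80. With group medians over all mice of A09 the difference was -0.03. The pairing was inferred from these data, and a number may not mark the same mouse in every assay, so nothing is read from the pairs. In A06 the 7 LAD mice lay between -5.46 and -4.48 (median -4.93). The 7 MLAD mice lay between -5.70 and -3.86 (median -5.05) and enclosed the LAD range.
In A09 the LAD mice read -1.22, -2.03, -1.58, -1.42 and -1.88 and the MLAD mice -1.97, -1.16, -1.02, -1.61 and -1.80. In B03 the LAD mice fell into a higher and a lower part, with 4 between -1.76 and -1.14 and the other two at -2.99 and -2.77. The 5 MLAD mice of B03 read -1.67, -2.29, -1.76, -1.55 and -1.53, inside the LAD range.

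**Figure D2:**
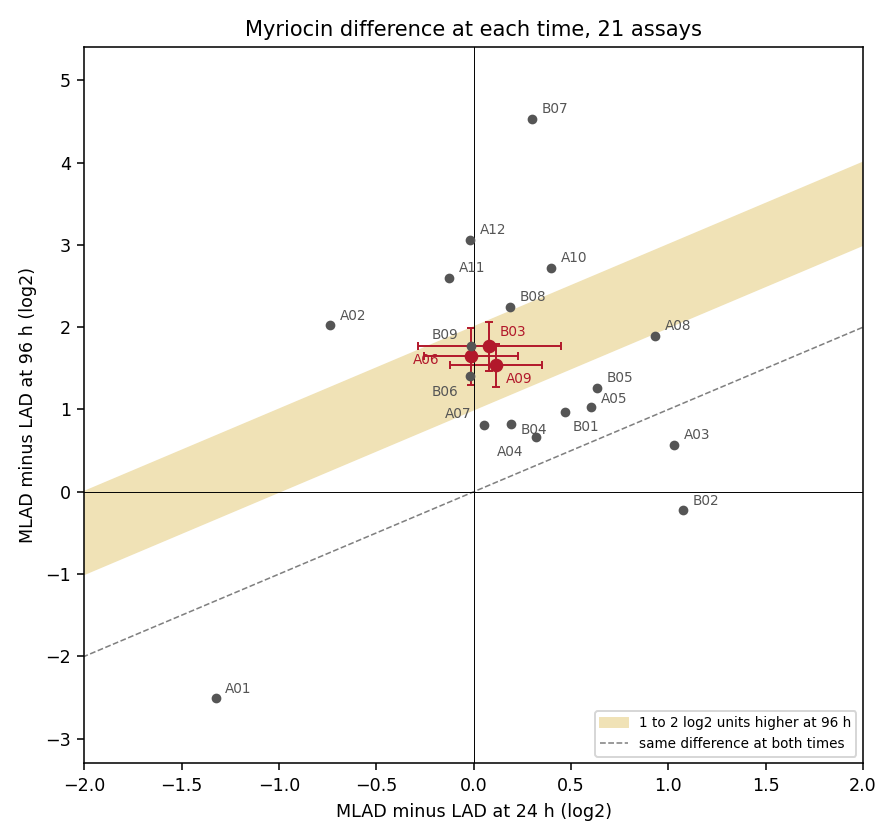
MLAD minus LAD at 24 h (horizontal axis, log2) against MLAD minus LAD at 96 h (vertical axis, log2) for the 21 assays, with A06, A09 and B03 in red with SE bars in both directions. The shaded band marks differences 1 to 2 log2 units higher at 96 h, and the dashed line equal differences. The red points lie near 0 at 24 h and between 1.54 and 1.77 at 96 h, with B06 and B09 in the same band.

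The later difference had a part from each group. Between 24 and 96 h the mean of LAD mice went from -4.89 to -5.47 in A06, from -1.62 to -2.70 in A09 and from -1.84 to -2.91 in B03. The mean of MLAD mice went from -4.91 to -3.82 in A06, from -1.51 to -1.17 in A09 and from -1.76 to -1.14 in B03. With B10 as reference, A06 had the larger change in MLAD mice, at 1.08 ± 0.30 (SE), against -0.58 ± 0.30 in LAD mice. These sizes were not clearly apart. On raw target Ct the mean of A06 went from 29.8 to 31.1 cycles in LAD and from 30.7 to 29.5 in MLAD mice, so neither part was clearly larger. In A09 the LAD change was the larger in the mean, with -1.08 ± 0.30 against 0.34 ± 0.19. The same held in B03, with -1.07 ± 0.44 against 0.62 ± 0.17. However, with B10 the sham mice of B03 changed by -1.003 ± 0.46 over the same time, near the LAD change. With B10 as reference, LAD minus sham of B03 went from 0.56 to 0.49 and MLAD minus sham from 0.64 to 2.26. Measured from sham with B10, the later difference of B03 thus lay with the MLAD mice. This turned with the reference. On raw Ct LAD minus sham went from 1.84 to -1.52 and MLAD minus sham from 0.60 to 1.09. With the median B10 Ct of a sample number they went from 0.43 to -1.31 and from 0.25 to 0.85. In both settings LAD mice had the larger part. Against the average target Ct they went from 0.98 to 0.16 and from 0.055 to 1.66, with the larger part in MLAD mice. Sham mice changed by 0.12 ± 0.23 in A06 and -0.02 ± 0.33 in A09. Values at 24 and 96 h overlapped in every group of all 3 assays. Lower LAD and higher MLAD means at 96 h were found in 8 of the 21 assays.

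Sham mice gave the level without ligation, and here the 3 assays differed in their patterns. The LAD and MLAD mice also enter the rule, so each group's distance from sham is given as a description. In A06 at 96 h the 5 sham mice were close together, at -4.40, -4.37, -4.63, -4.38 and -4.47. LAD mice lay 1.02 ± 0.28 (SE) below them and MLAD mice 0.63 ± 0.22 above them, each group overlapping the sham mice by a narrow margin. The LAD direction turned with the reference, to 0.68 against the average target Ct, where MLAD minus sham was 1.35. On the linear scale, as the quantity relative to the mean of sham mice of the same time, A06 was 0.531 ± 0.236 (SD, n = 5) in LAD and 1.63 ± 0.601 (SD, n = 6) in MLAD mice.

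In A09 both injured groups were below sham at both times with B10 as reference. On raw Ct LAD minus sham turned to 0.72 at 24 h, and against the average target Ct MLAD minus sham was 0.0127 at 24 h and 0.0654 at 96 h. The 3 sham mice at 96 h read -1.04, -0.69 and -0.85, with all LAD mice below them, by 1.84 ± 0.28 (SE) in the mean. The highest MLAD mouse, at -1.02, just reached the lowest sham mouse, and the mean was lower by 0.31 ± 0.12 (SE). The relative quantity was 0.297 ± 0.122 (SD, n = 5) in LAD and 0.810 ± 0.0655 (SD, n = 5) in MLAD mice.

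In B03 both injured groups had higher means than sham at both times with B10 as reference, but LAD minus sham at 96 h turned to -1.52 on raw Ct and to -1.31 with the median B10 Ct of a sample number. MLAD minus sham at 96 h was 1.09 and 0.85 in these settings. The sham mice at 96 h read -3.11, -2.98, -4.78, -2.24 and -3.88, a spread of 2.54 cycles that covered most of the LAD range. LAD mice were higher by 0.49 ± 0.52 (SE), less than the spread between mice. All 7 MLAD mice were above all sham mice, by 2.26 ± 0.44 (SE) in the mean. The relative quantity was 1.54 ± 0.676 (SD, n = 6) in LAD and 4.85 ± 0.780 (SD, n = 7) in MLAD mice.
Of the 3 assays, A09 had no overlap between LAD and sham mice at 96 h, where 13 of 21 assays (61.9%) had none, 2 of them (9.52%) with LAD higher. B03 had no overlap between MLAD and sham mice at 96 h, where 8 of 21 (38.1%) had none.

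At 24 h, with B10 as reference, the injured groups of A06 and A09 had lower means than sham, and those of B03 higher means. On raw Ct LAD minus sham of A06 was 0.79. LAD minus sham was -0.32 ± 0.25 (SE) in A06, -0.78 ± 0.34 in A09 and 0.56 ± 0.38 in B03. MLAD minus sham was -0.33 ± 0.31 (SE) in A06, -0.67 ± 0.36 in A09 and 0.64 ± 0.21 in B03. In 0 of the 3 assays did either injured group lie apart from sham, where 6 of 21 assays (28.6%) did so for LAD and 4 of 21 (19.0%) for MLAD.

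The order of the group means differed between the assays. A06 ran, from the lowest, LAD at 96 h, MLAD at 24 h, LAD at 24 h, sham at 24 h, sham at 96 h and MLAD at 96 h, and only the last step, of 0.63, was larger than the pooled SD of its pair. A09 ran LAD at 96 h, LAD at 24 h, MLAD at 24 h, MLAD at 96 h, sham at 96 h and sham at 24 h. Its steps from LAD at 96 h to LAD at 24 h (1.08), from MLAD at 24 h to MLAD at 96 h (0.34) and from there to sham at 96 h (0.31) were larger than the pooled SD, and the other two steps were not. B03 ran sham at 96 h, LAD at 96 h, sham at 24 h, LAD at 24 h, MLAD at 24 h and MLAD at 96 h, with the last step, of 0.62, above the pooled SD and the rest within it. Values of neighbouring groups overlapped at each of these steps.

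With LAD and MLAD mice pooled, each mouse counting alike, injured minus sham at 96 h was -0.12 for A06, with means of -4.57 (n = 11) and -4.45 (n = 5). It was -1.08 for A09, with means of -1.93 (n = 10) and -0.86 (n = 3), and 1.44 for B03, with means of -1.96 (n = 13) and -3.40 (n = 5). These are the same mice on which the assays were chosen, the gap between LAD and MLAD lies inside the spread of the pooled group, and the groups spread unequally, so the pooled values are a description and no p is given for them. They also hide unlike parts, since the A09 value joins -1.84 in LAD with -0.31 in MLAD mice, and the B03 value 0.49 with 2.26. On raw target Ct the pooled difference of B03 was -0.11 and that of A09 -1.39.
At 24 h the pooled difference was -0.33 for A06, -0.73 for A09 and 0.59 for B03. From 24 to 96 h it changed by 0.20 for A06, -0.35 for A09 and 0.85 for B03.
As background, exact permutation tests of the pooled mice, adjusted over the panel, gave 6 of 21 assays at 96 h (28.6%), 2 of them higher (9.52%) and 4 lower (19.0%). Unadjusted p-values were under 0.05 in 11 of 21 (52.4%). At 24 h they gave 0 of 21 (0.0%), and 7 of 21 (33.3%) unadjusted. The change with time passed in 1 of 21 (4.76%) in limma.

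**Figure D3:**
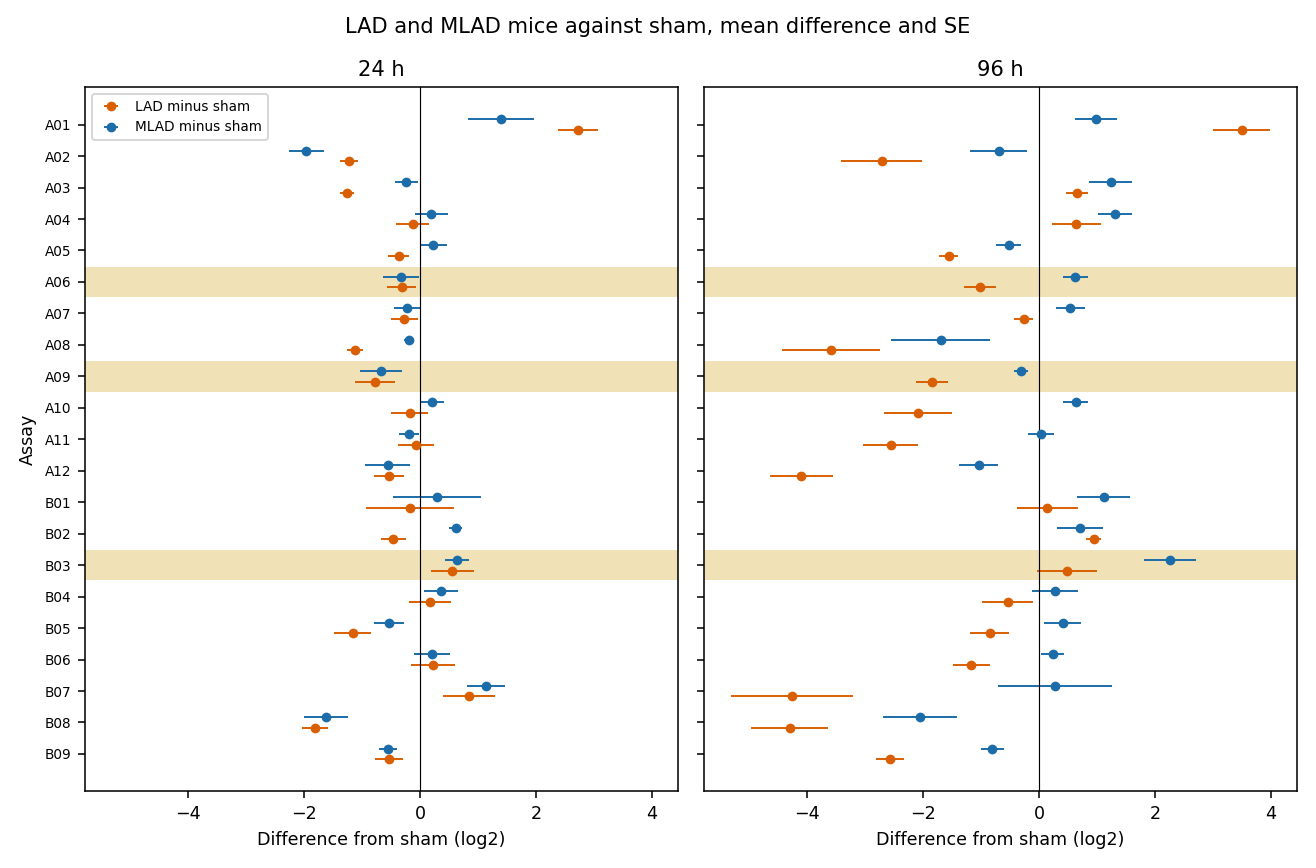
LAD minus sham (orange) and MLAD minus sham (blue) for each of the 21 assays at 24 h (left) and 96 h (right), on a log2 axis, as the difference of the means with its SE; shaded rows are A06, A09 and B03. At 96 h the MLAD points of A06 and B03 lie above 0 and that of A09 just below it, and the LAD points lie at -1.02, 0.49 and -1.84 for A06, B03 and A09.

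Sham mice at 96 h were compared with sham mice at 24 h, which share no animal with the rule and could be tested. No assay passed the exact permutation test, two-sided and adjusted after Benjamini-Hochberg (0 of 21, 0.0%), and 3 of 21 (14.3%) had an unadjusted p under 0.05, 2 of them lower (9.52%). The difference was 0.12 ± 0.23 (SE) for A06, -0.02 ± 0.33 for A09 and -1.003 ± 0.46 for B03, from sham mice alone. The 95% intervals in limma ran from -0.75 to 0.99 for A06, from -1.12 to 1.09 for A09 and from -2.25 to 0.24 for B03. These intervals take their spread from the mice of all groups, with LAD and MLAD merged. They therefore hold the gap that chose the assays and do not measure the spread of sham mice. With 3 mice against 3, A09 could not go below p = 0.1 in the exact permutation test, and B03, with 5 against 3, not below 0.0357. In most assays of the panel the smallest p that this test could give was above 0.05. The counts were thus largely fixed by the number of sham mice, and nothing is read from them. For B03 the lower sham level at 96 h enters each distance from sham at that time with B10 as reference. It was not lower with the other references, where the difference was 1.20 on raw Ct, 0.27 against the average target Ct and 0.0498 with the median B10 Ct of a sample number.

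Over the 6 group means, A06 and A09 had a Pearson r of 0.78. This put A06 at rank 9 of 20 among the assays closest to A09, and A09 at rank 3 of 20 among those closest to A06. Other assays of the panel were thus closer to each. B03 ran with A06 at 0.44 and with A09 at 0.09. The assays closest to A06 were A07 (r = 0.91) and A10 (r = 0.83), those closest to A09 were A12 (r = 0.93) and B08 (r = 0.93), and those closest to B03 were B01 (r = 0.90) and A04 (r = 0.89). These are descriptions over 6 points, which share the mice of each group and the reference assay. The LAD and MLAD means among the points also entered the rule, so likeness between the 3 assays is in part built in. None of these neighbours was common to any pair of the 3 assays.

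Much of the spread between mice in raw Ct was shared by target and reference. In B03 the target Ct of LAD mice at 96 h spanned 9.50 cycles and the B10 Ct 9.92 cycles, while their difference spanned 1.64. In A09 the target Ct of the same group spanned 5.25 cycles, the B10 Ct 3.99 and the difference 1.35. In the MLAD mice of B03 at 96 h the target spanned 5.05 cycles and the difference 0.652. The difference spanned less than the target Ct in 14 of the 18 groups of the 3 assays. It spanned more in the other 4, which were B03 in sham mice at 24 h (0.495 against 0.283) and 96 h (2.54 against 2.45), B03 in LAD mice at 24 h (1.86 against 1.83) and A09 in sham mice at 24 h (0.944 against 0.525).

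**Figure D4:**
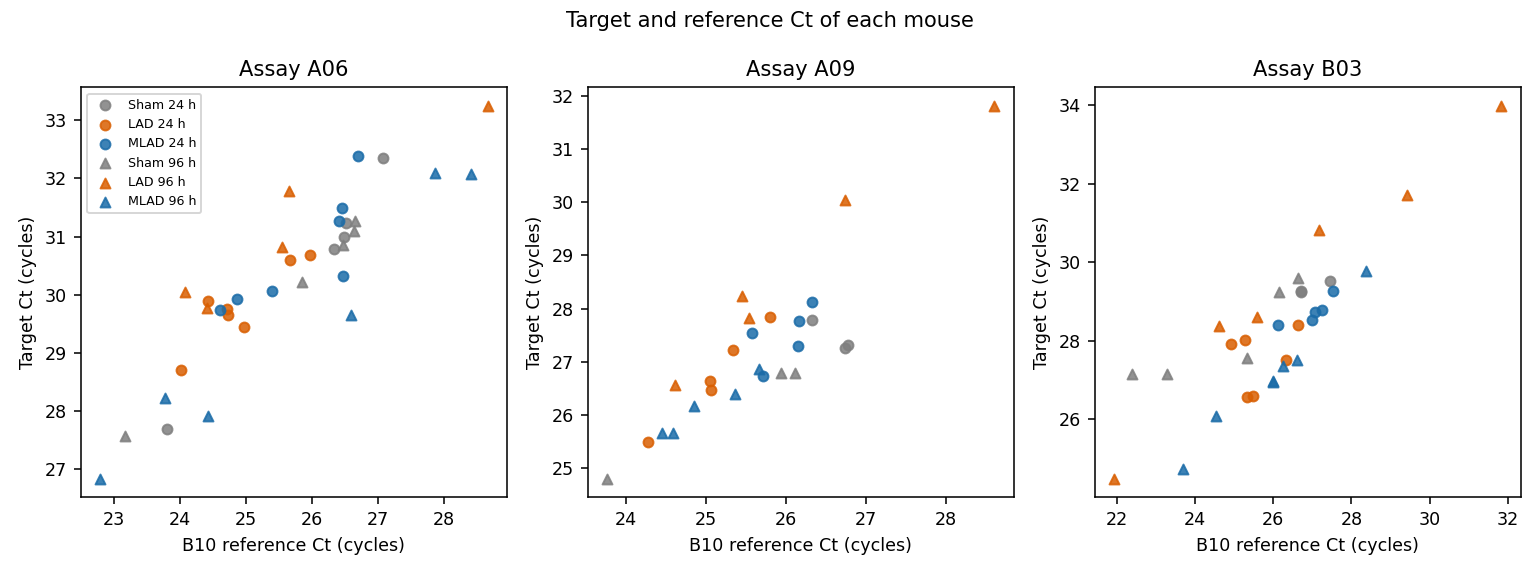
Target Ct against B10 reference Ct (cycles) of each mouse for A06, A09 and B03, with circles for 24 h and triangles for 96 h, grey for sham, orange for LAD and blue for MLAD. Higher target Ct mostly goes with higher B10 Ct, up to a B10 Ct of 31.8 and a target Ct of 34.0 in a LAD mouse of B03 at 96 h.

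Between groups the reference was not level. At 24 h the B10 Ct listed with A06 was 24.9 ± 0.680 (SD, n = 7) in LAD and 25.8 ± 0.866 (SD, n = 7) in MLAD mice. With A09 it was 25.1 ± 0.555 (SD, n = 5) and 26.0 ± 0.323 (SD, n = 5), and with B03 25.7 ± 0.672 (SD, n = 6) and 27.0 ± 0.527 (SD, n = 5). In all 3 assays the LAD mice thus had more reference product at 24 h. At 96 h the B10 Ct was 25.7 ± 1.80 (SD, n = 5) in LAD and 25.6 ± 2.31 (SD, n = 6) in MLAD mice for A06, 26.2 ± 1.55 (SD, n = 5) and 25.0 ± 0.518 (SD, n = 5) for A09, and 26.8 ± 3.54 (SD, n = 6) and 25.9 ± 1.50 (SD, n = 7) for B03.
On raw target Ct, MLAD minus LAD at 24 h was -0.93 for A06, -0.76 for A09 and -1.24 for B03, with the sign turned so that higher means more transcript. At 96 h it was 1.67, 2.74 and 2.61. Against the average target Ct of each mouse it was 0.67, 1.57 and 1.49 at 96 h. MLAD mice thus had the higher mean at 96 h under each reference tried, while at 24 h the means were close with B10 and lower in MLAD mice on raw Ct. Whether a change of B10 itself had a part in these differences was not tested.

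Reference readings recurred within the panel. Of the B10 readings listed with A06, 16 of 35 appeared to the last decimal under another sample number in the listing of another assay, as did 16 of 26 for A09, and 11 of 32 for B03 appeared under another sample number. These were almost always within the same group, with 1 exception in A06. Under the same sample number in another assay, 9 of 35 readings recurred for A06, 5 of 26 for A09 and 15 of 32 for B03. A06 and A09 shared 1 reading, and neither shared any with B03. The sample number may therefore not stand for the same mouse in every assay. The group is read from that number too, and apart from the 1 exception in A06 the readings that recurred under another number stayed within a group.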

How the data were processed

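Hearts of 38 mice in 6 groups were measured by qRT-PCR. Per the labels, 1000 ng of RNA was reverse transcribed and amplified with SYBR green for 40 cycles on a StepOnePlus instrument. The authors deposited the Ct, a score in cycles without normalization, for 21 target assays, each followed by the reference B10. How wells were combined and why combinations are empty was not stated. A second deposited table holds the authors' fold changes to sham and was not used. Groups came from the titles, and columns were matched by sample number.

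Relative expression was B10 Ct minus target Ct, and relative quantity was 2 to the power of its distance from the sham mean of the same time. Two-sided exact permutation tests took p as 2 times the smaller tail, with Benjamini-Hochberg adjustment over the 21 assays and a threshold of 0.05. The methods' unpaired t-test was replaced because groups held under 10 mice. The change of injured minus sham with time was tested in limma with 4 groups. Injured minus sham had been planned as a test independent of the rule, and is given without p for A06, A09 and B03 because the pooled mice hold the difference that chose them. The tests were run on simulated data with the same spread in all groups of an assay and the same shift in LAD and MLAD mice. That check does not cover a gap between LAD and MLAD mice or unequal spread. The named assays were A06, A09 and B03, those nearest the bounds of the rule, and the 2 assays with the highest Pearson r to each over the group means. B06 and B09, which lay inside the bounds, were named after their values were seen. The members and lists were chosen with earlier results of these data known.

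The labels number the mice of each group. Same-numbered LAD and MLAD mice at 24 h deviated together in all 7 pairs (r from 0.15 to 0.65 across assays), so these numbers were treated as pairs. For the other comparisons made here they were not. The labels do not say that a number marks a shared day or litter, and p-values rest on the spread between mice. Alternatives were other references (raw Ct, the mean of the targets, the median B10 Ct of a sample number), a limit on Ct of 35, medians, limma, the replicate block and each mouse left out. Python 3.11.15, NumPy 2.4.6, SciPy 1.17.1, pandas 2.3.3, matplotlib 3.10.9, R 4.3.3 and limma 3.58.1 were used.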

Additional observations from a re-analysis of the deposited data

How the results depend on the processing

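Of 199 values of A06, A09 and B03 under settings other than leaving out a mouse, 140 were counted as unchanged, and 31 had the opposite sign. For described differences, unchanged meant a shift under 1 SD. For pooled and sham comparisons it meant only the same sign and side of the p threshold. Sizes could still move, as for the change of injured minus sham in A06, at 1.57 against 0.20 with the mean target Ct. Limma with 4 groups and unadjusted p cannot move a difference. On raw Ct 11 of 37 results, counts of assays included, were unchanged. The limit of 35 on Ct removed no value of the 3 assays. Medians, and the pair of B03 mice counted as 1 (chosen after the data were seen), moved no value by over 1 SD. The cause of the changes below was not tested. With few sham mice, and an unknown technical error of a Ct, small differences from sham could not be resolved.

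On raw target Ct, injured minus sham at 24 h was 0.33 for A06 and 0.34 for A09, and at 96 h -1.39 for A09 and -0.11 for B03. Sham at 96 h minus 24 h was 1.32 for A09 and 1.20 for B03, and the change of injured minus sham was -0.35 for A06 and -1.39 for B03. MLAD minus LAD was -0.93, -0.76 and -1.24 at 24 h for A06, A09 and B03, and 2.74 and 2.61 at 96 h for A09 and B03. Its later minus its earlier value was 2.60, 3.50 and 3.86. Counts of assays called for injured against sham were 2 at 24 h and 1 at 96 h.

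With the mean Ct of all targets, injured minus sham at 96 h was 1.04 for A06 and -0.72 for A09, and sham at 96 h minus 24 h was -0.81, 0.75 and 0.27 for A06, A09 and B03. MLAD minus LAD was -0.93 for B03 at 24 h and 0.67 for A06 at 96 h, and its later minus its earlier value was 0.98 for A06 and 2.42 for B03. Counts were 2 at 24 h and 2 at 96 h. With the median B10 Ct of a sample number, injured minus sham at 96 h was -1.49 for A09 and -0.14 for B03, sham at 96 h minus 24 h was -0.63, 0.35 and 0.0498 for A06, A09 and B03, and the change of injured minus sham was -0.49 for B03. MLAD minus LAD at 96 h was 2.57 for A09, and its later minus its earlier value was 0.99, 2.28 and 2.34 for A06, A09 and B03. Counts were 2 at 24 h and 0 at 96 h. Both settings assume that a number means 1 mouse throughout the panel, which is uncertain given the recurring readings.

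Limma gave 13 assays for injured against sham at 96 h, with B03 at 1.44. Limma with LAD and MLAD weighted equally gave 4 at 24 h, 14 at 96 h and 6 for the change with time, with B03 at 1.37 at 96 h. With the replicate block, injured minus sham at 96 h was -0.96 for A09 and 1.51 for B03, with 9 assays called against 13 in limma without it. In pairs of same-numbered mice, MLAD minus LAD at 24 h was -0.02 for A06 (7 pairs), 0.29 for A09 (4 pairs, all above 0) and -0.10 for B03 (5 pairs). The replicate block called 0 assays at 24 h, 0 for sham and 1 for the change with time, as without it. Without adjustment of p, which leaves the differences at -0.73 for A09 at 24 h and 1.44 for B03 at 96 h, 7 assays were called at 24 h, 11 at 96 h and 3 for sham.

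With each mouse left out, injured minus sham ranged at 96 h from -0.27 to 0.0342 for A06, from -1.18 to -0.93 for A09 and from 1.10 to 1.73 for B03, with 1 to 8 assays called, 1 without sham replicate 2 or 3 and 2 without sham replicate 1. Sham at 96 h minus 24 h ranged from -0.0551 to 0.29 for A06 and from -0.33 to 0.14 for A09. The change of injured minus sham called from 0 to 1 assay, 0 without sham replicate 2 at 24 h or sham replicate 3 at 96 h. MLAD minus LAD at 96 h stayed above 0 for all 3 assays, between 1.39 and 1.92.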
